A study of Mus musculus with 4 samples.

Results

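Transcription factors known for the specification of innate lymphoid cells (ILCs), other than GATA3, were followed in single bone marrow cells: *Zbtb16*, *Tcf7*, *Lef1*, *Nfil3*, *Tox*, *Tox2*, *Bcl11b*, *Ets1*, *Gfi1* and *Tbx21*. In GRCm38 (GENCODE vM21) *Zbtb16* lies at chr9:48654297-48836222, *Tcf7* at chr11:52252371-52283014, *Tox2* at chr2:163203125-163324170, *Bcl11b* at chr12:107910403-108003602 and *Tbx21* at chr11:97098071-97115331. The factors were chosen by name, and all 10 are among the 26421 genes of the count tables. The cells are αLPs, bone marrow progenitors sorted as Lin-, CD127+, FLT3- and LPAM-1+. They came from WT mice and from G3SEKO mice, which carry a CRISPR-Cas9 deletion of the tandem super-enhancers related to *Gata3*, all C57BL/6. The labels give no age. Each of 2 experiments pooled cells of several mice of both genotypes, which were told apart by hashtag antibodies, and sequenced them by TAS-Seq, a method that reads the messenger RNA of single cells captured with BD Rhapsody. The labels of experiment 2 place its pair of hashtags, A0302 and A0303, under WT. A0303 was read as G3SEKO here, which all values of G3SEKO in experiment 2 depend on.

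As background, ILCs arise from common lymphoid progenitors through stages that switch transcription factors on and off in turn. NFIL3, TOX, TCF-1 (the product of *Tcf7*) and ETS1 act early, PLZF (the product of *Zbtb16*) marks the ILC precursor (ILCP), and BCL11B and GFI1 act in ILC2s, the type 2 lineage. GATA3 acts in early progenitors and ILCPs as well as in ILC2s. T-bet (the product of *Tbx21*) belongs to ILC1s and, with EOMES, to NK cells.

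Cells were placed in 5 gates by 4 genes that are not among the 10. A gene counted as present at a value of 1 or more of ln(1 + reads per 10000), or 1.72 reads per 10000. *Ccr6* marked the Ccr6+ gate (LTi-like and ILC3-like cells) and *Eomes* the Eomes+ gate (NK-like cells). These names rest on the gating gene alone. The rest formed the path to ILC2s, with an Icos-low gate, an Icos+ gate and an Il1rl1+ gate, *Il1rl1* encoding the ILC2 receptor ST2. The cells of a gate, genotype and experiment were summed, and levels are given as CPM, the reads of a gene scaled to the same total in each sum. A pair of values joined by "and" stands for CPM in experiments 1 and 2 in that order. CPM takes no account of gene length, so levels are compared within a gene and not between genes.

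In WT, the Icos-low, Icos+ and Il1rl1+ gates held 121, 109 and 424 cells in experiment 1 and 858, 660 and 3546 in experiment 2. In G3SEKO they held 20, 15 and 1 cells and 488, 471 and 49 cells. The Eomes+ gate held 25 WT cells in each experiment, and the Ccr6+ gate 2 and 38. Sums under 5 cells entered no test, so the WT Ccr6+ gate and the G3SEKO Il1rl1+ gate were tested with 1 sum each, from experiment 2. Kept cells had a median of 396198 (WT) and 509911 (G3SEKO) reads in experiment 1 and 29677 and 42814 in experiment 2. The tables share 11 of the numbers that name cells in an experiment.

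The WT precursor gates held cells with ILC2 markers. Of the WT Icos-low cells, 33.1% in experiment 1 and 69.3% in experiment 2 had at least 1 of 8 other ILC2 marker genes (*Il2ra*, *Klrg1*, *Il9r*, *Il13*, *Il5*, *Areg*, *Hs3st1*, *Ly6a*) at 1 or more. The same share was 15.0% and 21.1% in the G3SEKO Icos-low gate and 90.1% and 88.0% in the WT Il1rl1+ gate. The summed level of the 9 ILC2 markers with *Il1rl1* was 313 and 1629 in the WT Icos-low gate, against 2608 and 3532 in the WT Il1rl1+ gate. For some of the results on these gates, values without such cells are given too, an alternative added after the data were seen. The bins, shares and joint presence of factors below are over all cells. In the G3SEKO Icos-low gate of experiment 1, the 4 myeloid markers summed to 2943 CPM, nearly all *Lyz2*, and 4 of the 20 cells held *Cd3e* or *Cd3d*. The part of the myeloid reads in the results was not tested.

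*Gata3*, whose distant downstream super-enhancers are deleted in G3SEKO, was at 991 and 932 in the WT Icos-low gate and at 589 and 399 in the G3SEKO Icos-low gate. In Il1rl1+ cells of experiment 2, WT had 1039 CPM and G3SEKO 296 CPM of it.

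**Figure D1:**
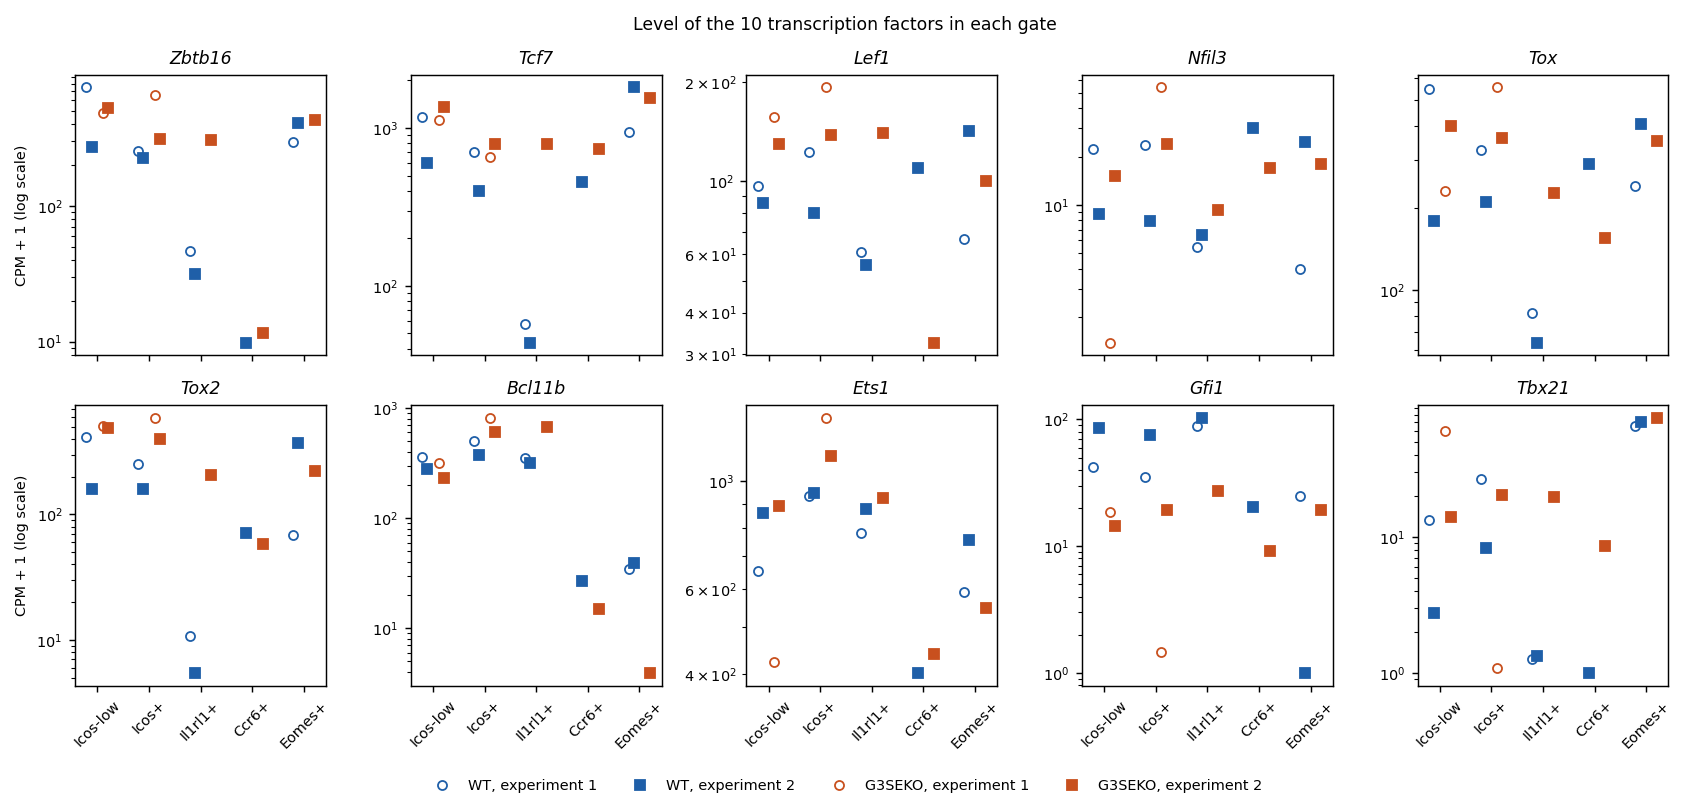
Level of each of the 10 transcription factors (CPM + 1, log scale) in the 5 gates, with 1 point for each sum of at least 5 cells, by genotype (colour) and experiment (open circles 1, filled squares 2). *Tox2* in WT lies between 159 and 411 CPM in the Icos-low gate and between 4.46 and 9.78 CPM in the Il1rl1+ gate, and *Bcl11b* is low in the Ccr6+ and Eomes+ gates.

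The first question was in which order the factors change along the path in WT. *Zbtb16*, *Tcf7*, *Tox* and *Tox2* were lower in the Il1rl1+ gate than in both earlier gates in both experiments, while *Bcl11b* and *Ets1* kept similar levels and *Gfi1* was higher there. *Zbtb16* was at 749 CPM in experiment 1 and 271 in experiment 2 in the Icos-low gate, at 253 and 223 in the Icos+ gate, and at 45.5 and 30.6 in the Il1rl1+ gate. It was thus 16.5-fold and 8.85-fold higher in Icos-low than in Il1rl1+ cells, and the groups did not overlap. How many of all genes show no overlap was not counted in any comparison. The fitted log2 difference of *Zbtb16* in Il1rl1+ minus Icos-low was -3.65 ± 0.44 (SE, n = 2 experiments, edgeR, adjusted p = 0.183). Each SE is the size of the log2 difference over the square root of the edgeR F statistic. It rests on a spread estimated over all sums of the fit, not on these 2 experiments alone.

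*Tcf7*, which encodes the factor TCF-1, was at 1175 and 598 in the Icos-low gate. It was at 699.8 and 396 in the Icos+ gate and at 56.1 and 42.7 in the Il1rl1+ gate. Every Il1rl1+ value lay below every earlier one. Its log2 difference between the ends of the path was -4.11 ± 0.44 (edgeR, adjusted p = 0.160).

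The HMG-box factors TOX and TOX2 followed. *Tox* was at 545 and 178 in the Icos-low gate, 325 and 209 in the Icos+ gate, and 81.0 and 63.1 in the Il1rl1+ gate. *Tox2* was at 411 and 159, then at 249.8 and 159, and finally at 9.78 and 4.46. *Tox2* was 42.0-fold and 35.6-fold higher in Icos-low than in Il1rl1+ cells, whereas *Tox* was 6.73-fold and 2.82-fold higher. The WT cells of experiment 1 carried 3 hashtags, and the sources used here do not tie a hashtag to single or pooled mice. Over these, *Tox2* ran from 308.4 to 497 CPM in Icos-low cells, while in Il1rl1+ cells 1 hashtag had 22.7 CPM and the others 2.29 and 2.93 CPM. The log2 differences were -5.29 ± 0.97 for *Tox2* and -2.20 ± 0.48 for *Tox* (edgeR, adjusted p = 0.438 and 0.613).

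None of the 10 factors passed an adjusted p of 0.05 between the ends of the path, where edgeR called 6 of 21351 genes (0.0281%). At an unadjusted p under 0.05 the test held 5 of the 10 factors, all lower in Il1rl1+ cells (*Zbtb16*, *Tcf7*, *Tox*, *Tox2* and *Tbx21*), and 974 genes in all (4.56%). DESeq2, run as an alternative on the same sums, called the same 5 factors lower and 1.79% of the genes it tested. The median log2 difference was -1.84 over the 10 factors and 0.04 over all genes tested. Markers of other lineages were lower in WT Il1rl1+ than in Icos-low cells too. The NK and ILC1 markers summed to 345.5 and 78.8 in Icos-low and 28.7 and 27.4 in Il1rl1+ cells, the LTi and ILC3 markers to 249 and 152 against 55.9 and 39.5, and the T lineage markers to 86.2 and 35.7 against 9.80 and 5.42. Without *Cd3e* or *Cd3d* cells the log2 difference of *Tcf7* was -4.10 and that of *Tox2* -5.31 (edgeR, adjusted p = 0.131 and 0.371), and the part of the other lists was not tested.

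Cells that held another ILC2 marker were then taken out of the precursor gates, while the Il1rl1+ gate kept all of its cells. The levels in the WT Icos-low gate of the 2 experiments came closer together. *Zbtb16* was at 886 and 661, *Tcf7* at 1375 and 1374, *Tox* at 626 and 404 and *Tox2* at 499 and 412. Since the cells were removed on 1 side only, by markers of the other side, the contrast of these gates is widened by construction, and calls on factors are not given for it. The log2 differences were -4.30 for *Zbtb16*, -4.74 for *Tcf7*, -5.95 for *Tox2* and -2.77 for *Tox*, and the number of genes called went from 6 to 37.

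**Figure D2:**
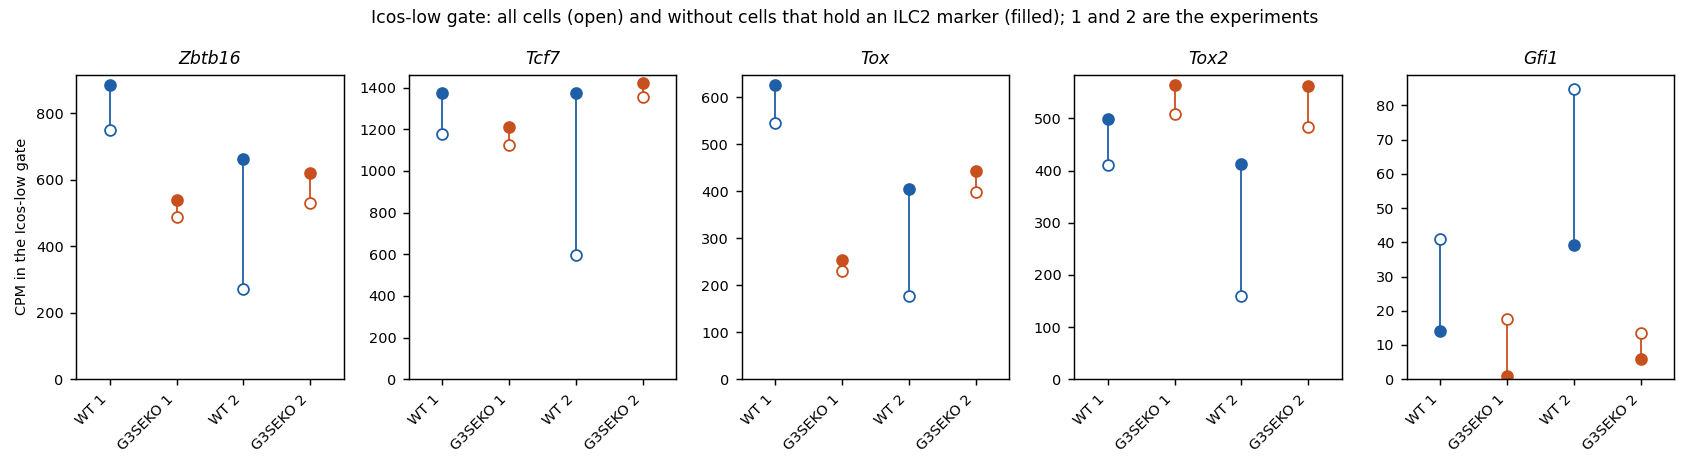
Level (CPM) of *Zbtb16*, *Tcf7*, *Tox*, *Tox2* and *Gfi1* in the Icos-low gate of each genotype and experiment, over all cells (open) and without cells that hold another ILC2 marker (filled). *Zbtb16* in WT of experiment 2 goes from 271 to 661 CPM and *Gfi1* from 84.8 to 39.3 CPM, and the G3SEKO values of *Zbtb16* move less.

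Most of the difference lay in the step from Icos+ to Il1rl1+. Of the fitted log2 difference between the ends of the path, the step from Icos-low to Icos+ held 27.9% for *Zbtb16*, 17.2% for *Tcf7*, 17.2% for *Tox* and 8.70% for *Tox2*. For *Zbtb16* this share was 39.3% in experiment 1 alone and 9.62% in experiment 2 alone, and 24.5% without the ILC2 marker cells. For *Tox* the single experiments gave 27.9% and -14.7% (higher in Icos+ than in Icos-low cells in experiment 2), and for *Tox2* 13.7% and 0.361%. For *Tcf7* they gave 17.5% and 16.2%. The experiments thus gave different shares for *Zbtb16*, *Tox* and *Tox2*. Between Icos+ and Il1rl1+ cells, edgeR called no gene (0%), held 5 of the 10 factors at an unadjusted p under 0.05 against 4.44% of all genes, and DESeq2 called 4 (*Zbtb16*, *Tcf7*, *Tox2*, *Tbx21*) and 1.80% of the genes. Between Icos-low and Icos+ cells, edgeR called 1 gene (0.00468%) and none of the factors. Only *Zbtb16* had an unadjusted p under 0.05 (-1.02 ± 0.40, edgeR, adjusted p = 1), against 2.86% of all genes, and DESeq2 called none of them and 0.499% of the genes.

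A finer division of the path gave the levels in bins of *Icos* and then of *Il1rl1*. *Zbtb16* in WT of experiment 1 went from 749 CPM in the lowest *Icos* bin through 357, 231 and 146 CPM to 70.5, 36.0 and 28.4 CPM in the 3 bins of *Il1rl1*. In experiment 2 the same bins gave 271, 340, 169, 184, 31.5, 29.4 and 32.7 CPM. The descent was thus not even in experiment 2, where the second bin was above the first. In experiment 1 *Tcf7* went from 1175 CPM in the first bin and 1106 CPM in the next to 426 CPM in the highest *Icos* bin and 91.4 CPM in the lowest *Il1rl1* bin.

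*Tox2* still had 263 and 152 in the highest *Icos* bin of the 2 experiments and was at 25.5 and 2.78 in the lowest *Il1rl1* bin. *Tox* had 107 and 66.0 in the latter bin. *Bcl11b* was highest in the highest *Icos* bin in both experiments, at 795 and 453, and was at 341 and 281 in the next bin. These bins were not tested.

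**Figure D3:**
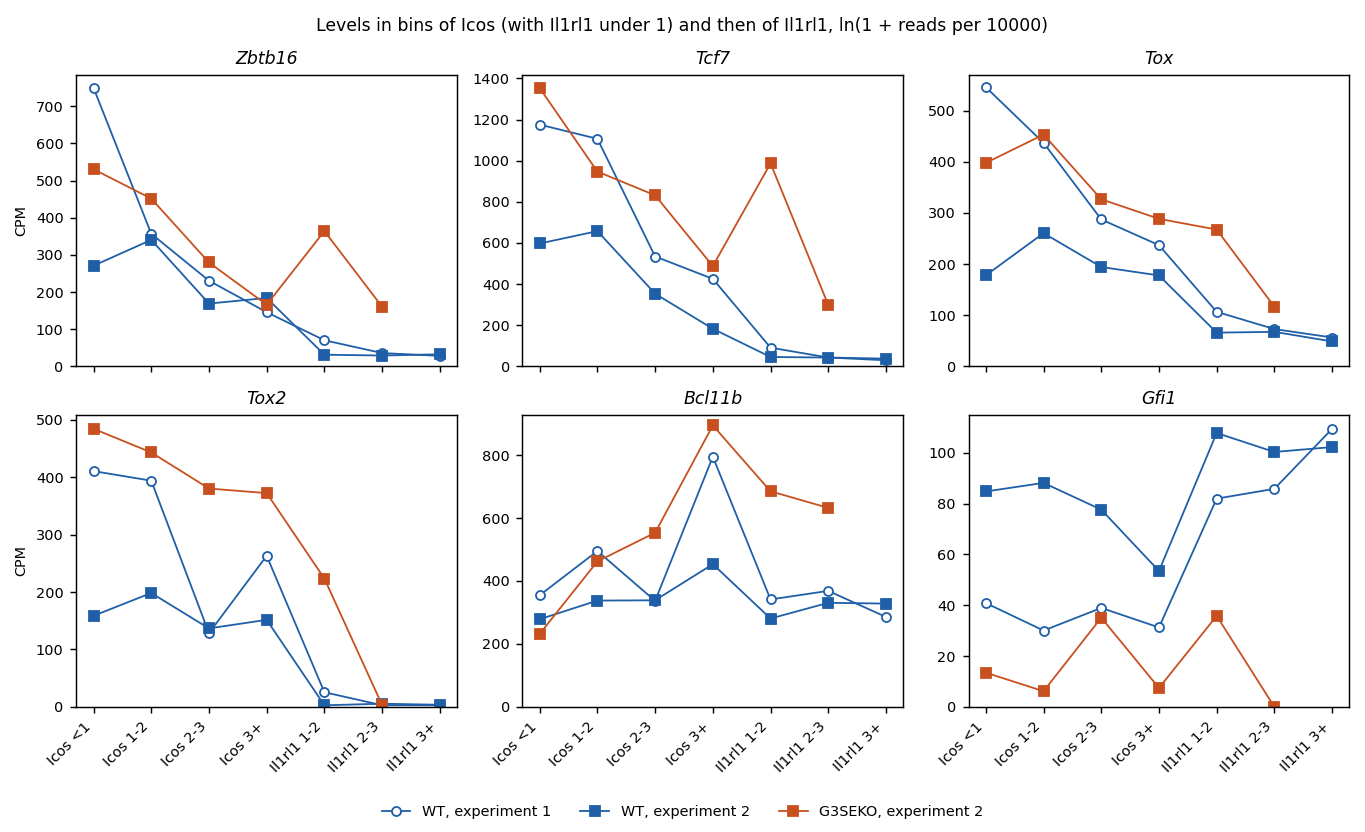
Level (CPM) of 6 of the factors along bins of *Icos* in cells with *Il1rl1* under 1 and then bins of *Il1rl1*, in WT of both experiments and G3SEKO of experiment 2, for bins of at least 10 cells. *Zbtb16*, *Tcf7*, *Tox* and *Tox2* are lower in each *Il1rl1* bin than in each *Icos* bin of the same WT experiment, *Bcl11b* peaks in the highest *Icos* bin (795 and 453), and G3SEKO keeps 224 CPM of *Tox2* in the lowest *Il1rl1* bin.

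*Tcf7* and *Tox2* were also found in a smaller share of Il1rl1+ cells. With every cell thinned to the depth limit of experiment 2, *Tcf7* was present in 57.9% and 19.5% of WT Icos-low cells (experiments 1 and 2), in 41.3% and 17.1% of Icos+ cells, and in 5.66% and 4.94% of Il1rl1+ cells. *Tox2* was present in 37.2% and 7.58% of Icos-low cells and in 0.708% and 0.395% of Il1rl1+ cells. Unthinned, *Tox2* was present in 42.1% and 8.39% of Icos-low and 0.472% and 0.479% of Il1rl1+ cells. Intervals and floors on such values cover counting error only.

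*Tcf7*, *Tox* and *Tox2* were found more often in cells with *Zbtb16* than in cells without it. Among WT Icos-low cells of experiment 1 with *Zbtb16*, 88.1% held *Tcf7*, 86.4% *Tox* and 74.6% *Tox2*, against 37.1%, 24.2% and 11.3% of those without *Zbtb16*. In experiment 2 *Tox2* was present in 51.7% of the 120 WT Icos-low cells with *Zbtb16* and in 1.36% of the 738 without. *Bcl11b* was present in 32.2% and 32.3% of Icos-low cells with and without *Zbtb16* in experiment 1, and in 24.2% and 23.8% in experiment 2. In experiment 1, *Ets1* was present in 74.6% and 79.0% and *Nfil3* in 1.69% and 6.45% of the cells with and without *Zbtb16*. In experiment 2 *Ets1* went the other way, with 71.7% and 64.5%, and *Nfil3* was in 0% and 1.08%. *Gfi1* was present in 3.33% of the Icos-low cells with *Zbtb16* and 10.7% of those without in experiment 2. Cells with *Zbtb16* were deeper (a median of 633658 reads against 327198 in experiment 1, and 43482 against 21320 in experiment 2), and cells of 1 library are not replicates, so no test was made.

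*Bcl11b* and *Ets1*, which act in T cells and ILC2s, were present along the whole path. *Bcl11b* was at 355 and 279 in the Icos-low gate, 500.0 and 369 in the Icos+ gate and 349 and 318 in the Il1rl1+ gate. Its log2 difference between the ends of the path was 0.11 ± 0.19, and that of the step to Icos+ was 0.43 ± 0.19 (edgeR, adjusted p = 1 for both). *Ets1* was at 652 and 858, then 932 and 947, then 783 and 875, with a log2 difference of 0.16 ± 0.16 between the ends (edgeR, adjusted p = 1).

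*Gfi1*, a repressor that acts in ILC2s, was at 40.9 and 84.8 in the Icos-low gate, 34.1 and 74.2 in the Icos+ gate and 87.8 and 103 in the Il1rl1+ gate. Without the ILC2 marker cells it was at 14.2 and 39.3 in the Icos-low gate and 19.9 and 32.6 in the Icos+ gate. Its log2 difference between the ends of the path was 0.62 ± 1.26 in the main fit and 1.90 without those cells (edgeR, adjusted p = 1 and 0.898). *Gfi1* was thus higher in Il1rl1+ cells in both experiments, and the spread of the fit was too wide to call it.

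*Lef1*, a relative of *Tcf7*, was at 96.0 and 84.7 in the Icos-low gate, 121 and 79.1 in the Icos+ gate and 60.2 and 54.8 in the Il1rl1+ gate (-0.63 ± 0.38 on the log2 scale between the ends, edgeR, adjusted p = 1). *Nfil3*, needed early in ILC development, was low throughout, at 21.2 and 7.81 in Icos-low and 4.47 and 5.46 in Il1rl1+ cells. It was present in 4.13% and 0.932% of Icos-low cells. *Lef1* and *Nfil3* gave no call in any WT comparison, with either tool.

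The Eomes+ gate held less *Bcl11b* and more *Tbx21* than the WT gates of the path. *Bcl11b* was at 33.6 and 38.4 in WT Eomes+ cells, below every value of the path gates. Its log2 difference from Icos-low was -3.16 ± 0.21 (edgeR, adjusted p = 0.109). *Tbx21*, at 12.4 and 1.77 in Icos-low and 26.0 and 7.26 in Icos+ cells, was at 64.9 and 69.4 in Eomes+ cells (3.64 ± 0.95, edgeR, adjusted p = 0.213) and at 0.262 and 0.324 in Il1rl1+ cells. Single bins and small sums came near that level, with 57.5 CPM in the *Icos* bin from 1 to 2 of WT in experiment 1 (36 cells) and 59.1 CPM in the 20 G3SEKO Icos-low cells of experiment 1. A single cell held 48.7% and 67.0% of the *Tbx21* reads of the Eomes+ gate. Of the 7 NK and ILC1 markers, *Klrb1c* was at 149 and 56.4, *Ncr1* at 81.4 and 80.5, and *Klrd1* at 703 and 144 there. *Prf1* was at 7.61 CPM and *Gzma* at 0.121 CPM in experiment 1, and both were at 0 in experiment 2. The sort gated out cells with surface NK1.1 or CD3e.

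The early factors were also present in Eomes+ cells. *Zbtb16* was at 293 and 410.0, *Tcf7* at 944 and 1809, and *Tox* at 240.2 and 408. Their log2 differences from Icos-low lay between -0.44 and 0.68, and none passed the test. *Gfi1* was at 24.0 CPM in experiment 1 and had no read in experiment 2. Of 25 Eomes+ cells, 9 in experiment 1 and 2 in experiment 2 held *Cd3e* or *Cd3d*, although cells with surface CD3e were gated out. EdgeR called no gene between Eomes+ and Icos-low cells (0%), held 2 of the factors (*Bcl11b*, *Tbx21*) at an unadjusted p under 0.05 against 14.1% of all genes, and DESeq2 called these 2 and 11.3% of the genes.

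The WT Ccr6+ gate rests on 1 sum of 38 cells of experiment 2, which has no spread of its own, so errors and p-values assume that it varies like the other sums. *Zbtb16* was at 8.82 CPM and *Bcl11b* at 26.0 CPM there, with 82.4% and 92.0% of these reads from a single cell. *Tcf7* was at 452 CPM and *Tox* at 289.6 CPM. The log2 differences from Icos-low were -5.60 ± 0.70 for *Zbtb16*, -3.57 ± 0.29 for *Bcl11b* and -1.08 ± 0.21 for *Ets1* (edgeR, adjusted p = 0.117, 0.117 and 0.141). No read of *Tbx21* was counted, which allows up to 1.56 CPM (3 reads), about the level of the WT Icos-low gate in that experiment. EdgeR called no gene here (0%) and held 4 of the factors at an unadjusted p under 0.05 (the 3 above and *Tbx21*, which has no read there) against 14.3% of all genes. DESeq2 called *Zbtb16*, *Bcl11b* and *Ets1* lower, and 13.5% of the genes.

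The 107 G3SEKO Ccr6+ cells of experiment 2 gave 10.54 CPM of *Zbtb16*, 14.1 CPM of *Bcl11b* and 738 CPM of *Tcf7*. The 42 G3SEKO Eomes+ cells of that experiment gave 431 CPM of *Zbtb16*, 2.95 CPM of *Bcl11b* and 75.0 CPM of *Tbx21*. The genotypes were not tested against each other in these gates.

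The second question was whether the factors differ between the genotypes at a given stage. In the Il1rl1+ gate G3SEKO is a single sum with no spread of its own, so the errors and p-values there assume that it varies like the other sums. Under that assumption *Tox2* was called higher in G3SEKO, from 9.78 and 4.46 in WT to 206 CPM in the 49 G3SEKO cells of experiment 2, with a log2 difference of 5.21 ± 0.35 (edgeR, adjusted p = 0.0368). It was the only gene that edgeR called there (1 of 21768, 0.00459%). It was 46.1-fold higher within experiment 2. Of the bins of this gate with at least 10 G3SEKO cells, only the one nearest the threshold had more *Tox2* in G3SEKO. At *Il1rl1* from 1 to 2, *Tox2* was at 224 CPM in 31 G3SEKO cells and 2.78 CPM in 912 WT cells of experiment 2. At 2 to 3 it was at 3.38 CPM in 15 G3SEKO cells and 5.56 CPM in 1703 WT cells, and the G3SEKO value there rests on few reads. G3SEKO cells at 3 or more were fewer than 10 and are not given, so the bins do not place the whole difference. These bins were not tested. A single cell held 24.0% of its reads in the G3SEKO sum, and *Tox2* was present in 20.4% of the G3SEKO cells against 0.479% of the WT cells. The call was lost with no experiment block (adjusted p = 0.137), without the limit on *Id2* (0.0845), with gates at 1.5 (0.0529) and without *Mki67* cells (0.0501, all edgeR).

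*Zbtb16* was at 305 CPM in G3SEKO and 30.6 CPM in WT Il1rl1+ cells of experiment 2, a 9.95-fold difference, and *Tcf7* was at 795 CPM in G3SEKO against 42.7 CPM in WT, an 18.6-fold difference. In both, the G3SEKO value lay near those of the WT Icos-low and Icos+ gates. The log2 differences were 3.23 ± 0.43 for *Zbtb16* and 4.07 ± 0.38 for *Tcf7* (edgeR, adjusted p = 0.109 and 0.0645). *Tox* (226 against 63.1 CPM), *Lef1* (139 against 54.8 CPM) and *Bcl11b* (663 against 318 CPM) were also higher in G3SEKO. *Gfi1* was the exception, at 26.3 CPM in G3SEKO and 103 CPM in WT (-2.61 ± 1.58, adjusted p = 0.586, edgeR), and *Ets1* was at 923 CPM against 875 CPM.

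At an unadjusted p under 0.05, edgeR held 7 of the 10 factors as higher in G3SEKO Il1rl1+ cells, against 10.8% of all genes in either direction. DESeq2 called 6 of them higher (*Zbtb16*, *Tcf7*, *Lef1*, *Tox2*, *Bcl11b*, *Tbx21*) and 7.32% of the genes it tested. *Tbx21* reached the threshold in 1 of the 49 G3SEKO cells and in 0 after thinning, where its log2 difference went from 6.19 to -1.51 (edgeR, adjusted p = 0.939). The median log2 difference was 1.55 over the 10 factors and -0.67 over all genes. The G3SEKO Il1rl1+ cells held less of the ILC2 markers (1134 CPM in sum, against 3532 CPM in WT of experiment 2) and more of the ILCP markers *Pdcd1*, *Il18r1*, *Kit*, *Itga4* and *Itgb7* (2342 against 1527 CPM). They also held more of the LTi and ILC3 markers (359 against 39.5 CPM), the NK and ILC1 markers (122 against 27.4 CPM) and the 2 markers of dividing cells (163 against 79.6 CPM). The part of the LTi, ILC3, NK and ILC1 markers in the differences was not tested. *Zbtb16* and *Tcf7* were higher in G3SEKO in both bins of the gate that held at least 10 G3SEKO cells in experiment 2, with no test. The bin at 3 or more held fewer and is not given. At *Il1rl1* from 1 to 2, *Zbtb16* was at 364 CPM in G3SEKO against 31.5 CPM in WT, and *Tcf7* at 987 against 46.1 CPM. At 2 to 3, *Zbtb16* was at 161 against 29.4 CPM, and *Tcf7* at 299 against 43.2 CPM.

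**Figure D4:**
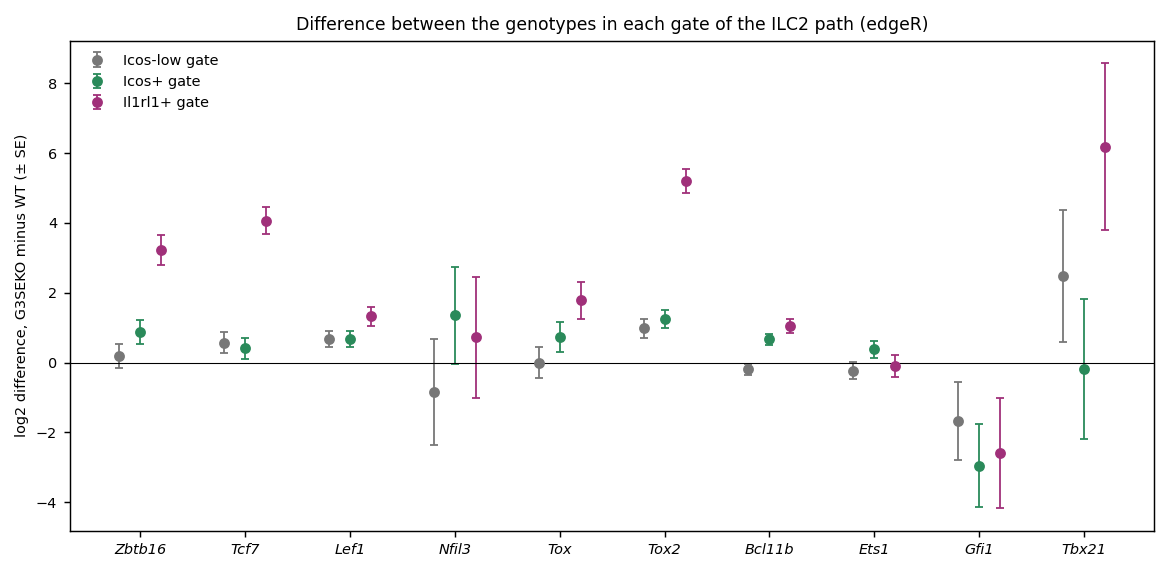
Log2 difference of G3SEKO minus WT (± SE of the edgeR fit) for each factor in the Icos-low, Icos+ and Il1rl1+ gates. *Tox2* (5.21), *Tcf7* (4.07) and *Zbtb16* (3.23) lie highest above 0 relative to their errors in the Il1rl1+ gate, where G3SEKO has a single sum of 49 cells, and *Gfi1* lies below 0 in all 3 gates.

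In the Icos-low gate edgeR called no gene between the genotypes (0%). *Zbtb16* was at 487 and 531 in G3SEKO and 749 and 271 in WT, and the ranges overlapped. *Tcf7* was at 1123 and 1353 in G3SEKO and 1175 and 598 in WT. *Tox2* (509 and 484 in G3SEKO, 411 and 159 in WT) and *Lef1* (155 and 129, 96.0 and 84.7) did not overlap, which was not counted over all genes. Both had an unadjusted p under 0.05 (edgeR), as did 5.38% of all genes. Their log2 differences were 0.98 ± 0.27 and 0.68 ± 0.22 (edgeR, adjusted p = 0.827 for both). The NK and ILC1 markers summed to 345.5 and 78.8 in WT and 567 and 228 in G3SEKO, the LTi and ILC3 markers to 249 and 152 against 147 and 454, and the T lineage markers to 86.2 and 35.7 against 469.7 and 70.3. Without *Cd3e* or *Cd3d* cells the log2 differences were 1.04 for *Tox2* and 0.81 for *Lef1* (edgeR, adjusted p = 0.795 for both), and the part of the other lists was not tested. Without the ILC2 marker cells that of *Tox2* was 0.41 and that of *Zbtb16* went from 0.18 to -0.30 (edgeR, adjusted p = 0.908 and 0.919). DESeq2 called none of the factors (adjusted p = 0.0839 for *Tox2*) and 1.17% of the genes. With thinned cells edgeR called *Tox2* higher in G3SEKO (1.67, adjusted p = 0.00193) among 128 of 14914 genes.

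In the Icos+ gate *Tox2* was at 593 and 400.1 in G3SEKO and 249.8 and 159 in WT (1.25 ± 0.27), and *Bcl11b* at 817 and 607 in G3SEKO and 500.0 and 369 in WT (0.67 ± 0.16). *Zbtb16* was at 661 and 310.9 in G3SEKO and 253 and 223 in WT (0.88 ± 0.35). For these the G3SEKO values did not overlap those of WT, which was not counted over all genes. *Gfi1* was at 0.448 and 18.3 in G3SEKO and 34.1 and 74.2 in WT (-2.95 ± 1.19). The adjusted p of each was 0.845 (edgeR). Of the Icos+ cells, 40.4% and 64.5% in WT and 20.0% and 16.3% in G3SEKO held another ILC2 marker, and the ILC2 markers summed to 506 and 1128 in WT and 82.2 and 157 in G3SEKO. The LTi and ILC3 markers summed to 249.96 and 207 in WT and 545 and 433 in G3SEKO, and the NK and ILC1 markers to 242 and 35.4 in WT and 65.3 and 190.5 in G3SEKO, and their part in the differences was not tested. Without the cells that held another ILC2 marker the log2 differences were 0.94 for *Tox2*, 0.64 for *Bcl11b*, 0.60 for *Zbtb16* and -2.73 for *Gfi1* (edgeR, adjusted p = 0.884 for each). EdgeR called no gene (0%) and held 5 of the factors at an unadjusted p under 0.05 (these and *Lef1*), against 4.62% of all genes. DESeq2 called *Tox2* alone (adjusted p = 0.0125) and 0.868% of the genes. With thinned cells edgeR called *Tox2* (1.67, adjusted p = 0.00174) and *Zbtb16* (1.22, adjusted p = 0.0412) higher in G3SEKO, among 178 of 14914 genes.

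Within G3SEKO, the step from Icos-low to Icos+ showed *Bcl11b* going from 312.2 and 232 to 817 and 607, the direction it had in WT, while *Tox2* went from 509 and 484 to 593 and 400.1. No factor moved one way in both WT sums and the other way in both G3SEKO sums. Whether the genotype difference itself was larger in Il1rl1+ than in Icos-low cells was tested. The differences of the log2 differences were 4.23 ± 0.42 for *Tox2*, 3.496 ± 0.47 for *Tcf7* and 3.05 ± 0.54 for *Zbtb16* (edgeR, adjusted p = 0.423, 0.423 and 0.436), and rest on the same single G3SEKO sum. EdgeR called no gene (0%) and held 5 of the factors (with *Bcl11b* and *Tox*) at an unadjusted p under 0.05, against 6.83% of all genes. DESeq2 called *Tox2*, *Tcf7* and *Zbtb16* and 2.32% of the genes. With the ILC2 marker cells taken out of the precursor gates, these differences were 4.74 for *Tox2* and 4.01 for *Tcf7*, and the number of genes called went from 0 to 6. The Il1rl1+ sums were the same in that fit, where 42.9% of the G3SEKO cells still held such a marker, and the number called within that gate went from 1 to 22 with its sums unchanged. Calls on factors are therefore not given for it.

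The promoter letters of 2 factors with different patterns are shown, *Tox2*, the called one, and *Tbx21*, which was highest in Eomes+ cells. Of the 10 factors, 7 are in the RefSeq promoter table used (GRCm38.p6), and for these 2 the printed bases hold no exon of GENCODE vM21. The *Tox2* stretch is chr2:163202877-163203124 (plus strand) and the *Tbx21* stretch chr11:97115332-97115581 (minus strand, printed 5′ to 3′ for the gene). Capitals mark the motifs searched on both strands: AGATAA for the GATA family, CTTTGA for the TCF/LEF family, TGTGGT for the RUNX family, CCGGAA for the ETS family and GGGCGG for the GC box, whose matches may overlap.
Tox2: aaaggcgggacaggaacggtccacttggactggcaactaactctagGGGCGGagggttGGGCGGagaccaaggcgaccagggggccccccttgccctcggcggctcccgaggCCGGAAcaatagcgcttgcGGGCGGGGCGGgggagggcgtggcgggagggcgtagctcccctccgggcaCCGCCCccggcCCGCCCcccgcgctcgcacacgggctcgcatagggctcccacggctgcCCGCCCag
Tbx21: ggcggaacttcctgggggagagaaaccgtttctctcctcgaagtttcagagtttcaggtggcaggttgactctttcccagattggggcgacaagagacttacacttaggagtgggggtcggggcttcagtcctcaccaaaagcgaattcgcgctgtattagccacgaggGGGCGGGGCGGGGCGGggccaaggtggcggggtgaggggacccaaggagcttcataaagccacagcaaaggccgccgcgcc
*Tox2* has 1 ETS match and 7 GC boxes, and *Tbx21* 3 GC boxes. Of 27025 such stretches of 250 bases, 12.3% hold the ETS letters and 33.0% the GC box. The GATA letters are in 10.2% of all stretches and in none of the 7 factors, and the TCF/LEF letters are in 14.1% and in that of *Bcl11b*. These are matches of letters in short windows only.

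Other transcription factors of lymphoid cells and ILCs were taken as a list of 36, of which 35 are in the tables and 34 were tested. None passed the adjusted threshold in any of the 9 comparisons with edgeR. Between the ends of the WT path 7 had an unadjusted p under 0.05, all lower in Il1rl1+ cells, against 4.56% of all genes, and the median log2 difference was -0.37 over the 34 and 0.04 over all genes. In G3SEKO Il1rl1+ cells 10 had an unadjusted p under 0.05 and were higher, and 2 were lower, against 10.8% of all genes, with a median of 0.50 against -0.67 over all genes.

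The genes with the pattern most like each factor over the 9 WT sums, by Pearson correlation of log2(CPM + 1) among 9071 genes with a mean of at least 10 CPM, were *Ndst1* (0.98) and *Trbc1* (0.98) for *Zbtb16*. For *Tcf7* they were *H2-Ob* and *Gsn* (0.98 each), for *Tox* *Plekhf1* (0.98) and *Marcksl1* (0.95), and for *Tox2* *Cacna1e* and *Pdcd1* (0.98 each). For *Bcl11b* they were *Mc5r* (0.995) and *Ppp4c* (0.99), for *Ets1* *Nudcd1* and *Haus4* (0.98 each), and for *Gfi1* *Fam117b* and *Dtnbp1* (0.99 each). For *Lef1* they were *Nebl* (0.97) and *Treml2* (0.96), for *Nfil3* *Xpc* (0.97) and *Rgp1* (0.95), and for *Tbx21* *Gsto1* (0.98) and *Tnfrsf1a* (0.97). The sums share 2 libraries, and among so many genes high values can arise without any relation.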

How the data were processed

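Both messenger RNA libraries of WT and G3SEKO αLPs were analysed. Per the labels and the study's methods, the authors trimmed reads with Cutadapt, aligned them with Bowtie2 to GRCm38, and deposited a table of unnormalised read counts for each experiment, whose cell names carry the hashtag call. PCR copies of a molecule count separately. The counts of the hashtag libraries, also deposited by the authors, served to check the names. Cells of at least 83012 (experiment 1) or 6733 (experiment 2) reads, at most 10% mitochondrial reads, 1 hashtag and *Id2* of at least 1 were kept (724 and 6289). Cells with 2 hashtags were left out as doublets, and no caller based on expression was run.

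Reads were summed over each gate, genotype and experiment (at least 5 cells) and tested with the quasi-likelihood test of edgeR 4.0.16 (TMM, filterByExpr, Benjamini-Hochberg, adjusted p under 0.05) with the experiment as a block. WT gates (9 sums) and both genotypes of the path gates (11 sums) were fitted apart. Sums of an experiment share a library, and their deviations correlated between 0.100 and 0.533 (9383 genes). The pooled mice make n = 2 (1 for the WT Ccr6+ and G3SEKO Il1rl1+ gates), and p-values measure the spread between these sums. DESeq2 1.42.0 and limma 3.58.1 (log2 of mean CPM + 1) were alternatives, the steps were tested on simulated data, and 14 alternatives were planned and 2 added after the data were seen. The rule for named genes gave the 10 factors, the 2 most alike genes of each and called members of the list of other factors, of which there were none. *Gata3* and cell type markers are named beside these as checks. The members and lists were chosen with earlier results of these data known. Gene positions came from GENCODE vM21.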

Additional observations from a re-analysis of the deposited data

How the results depend on the processing

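The 10 factors in the 9 comparisons gave 1260 tested values under alternatives, of which 1143 kept direction and side of the threshold, 55 became calls, 4 lost a call and 58 changed sign. The 4 lost calls were all *Tox2* in G3SEKO Il1rl1+ cells. With no replicate block its log2 difference was 4.66 (edgeR, adjusted p = 0.137), and the block changed no other call on a factor. With each experiment left out in turn only values without a test were had, and the G3SEKO Il1rl1+ and WT Ccr6+ gates gave none without experiment 2. Of these 150 values, 53 moved by more than the spread of the experiments, changed sign or had no second experiment to be set against. *Zbtb16* in G3SEKO Icos-low cells was -0.49 in experiment 1 alone and 0.90 in experiment 2 alone, and between the ends of the WT path *Tbx21* was -5.45 and -2.25 and *Gfi1* 1.10 and 0.32. The counts of genes called moved most. DESeq2 called 88 genes between WT Icos+ and Icos-low cells, 333 between Il1rl1+ and Icos+, 323 between Il1rl1+ and Icos-low, 1871 between Ccr6+ and Icos-low and 1944 between Eomes+ and Icos-low. For G3SEKO against WT it called 195 in Icos-low, 156 in Icos+ and 1068 in Il1rl1+ cells, and 378 for the genotype difference between gates, where edgeR called at most 6 in each of the 9. Thinned cells gave 21, 40, 170, 43, 128, 178, 419 and 25 calls in these comparisons from Il1rl1+ against Icos+ on. Among them were 16 calls on factors, *Tcf7* and *Tox2* (Il1rl1+ against Icos+), *Zbtb16*, *Tcf7* and *Tox2* (Il1rl1+ against Icos-low), *Zbtb16* and *Bcl11b* (Ccr6+), *Bcl11b* (Eomes+), *Tox2* (G3SEKO Icos-low), *Zbtb16* and *Tox2* (G3SEKO Icos+), *Zbtb16*, *Tcf7* and *Tox2* (G3SEKO Il1rl1+) and *Tcf7* and *Tox2* (the difference between gates). Between Il1rl1+ and Icos+ cells, 4 genes were called with RLE size factors, 3 with gates at 0.5, 1 with gates at 1.5, 5 without *Cd3e* or *Cd3d* cells, 6 without *Mki67* cells, 29 without ILC2 marker cells and 1 with deeper cells of experiment 2. Between Il1rl1+ and Icos-low cells, the last 2 gave 37 and 14, and the mean of each cell's CPM gave 1. Between Icos+ and Icos-low cells, RLE, no limit on *Id2* and no ILC2 marker cells each gave 0. In the Ccr6+ gate, gates at 0.5 gave 1 and the mean CPM 471. For G3SEKO in Il1rl1+ cells, RLE gave 14, gates at 0.5 gave 7, gates at 1.5, no replicate block and no *Mki67* cells 0, no ILC2 marker cells 22, deeper cells 23 and the mean CPM 145. The genotype difference between gates gave 6 without ILC2 marker cells and 9 by mean CPM. The cause was not tested. The depth of experiment 2, where the gate threshold was 5.49 reads in a cell of median depth, limits shares of cells.

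The 58 values that changed sign were called neither in the main test nor under the alternative. They are given as log2 differences, with the gate set against WT Icos-low, or the genotypes set against each other in a gate, in parentheses. With DESeq2 these were *Tox* 0.14 (Ccr6+), *Tox* 0.11 (Eomes+), *Tox* 0.060 (G3SEKO Icos-low) and *Ets1* 0.075 (G3SEKO Il1rl1+). With RLE size factors these were *Tox* 0.14 (Ccr6+), *Tox* 0.11 (Eomes+), *Tox* 0.060 (G3SEKO Icos-low) and *Ets1* 0.075 (G3SEKO Il1rl1+). With no filter this was *Nfil3* 0.0025 (Icos+). With no replicate block this was *Nfil3* 0.0035 (Icos+). With no limit on *Id2* these were *Bcl11b* -0.26 (Il1rl1+), *Tox* 0.18 (Ccr6+), *Tox* 0.16 (Eomes+), *Tox2* 0.056 (Eomes+), *Ets1* 0.012 (Eomes+), *Zbtb16* -0.16 (G3SEKO Icos-low), *Nfil3* 1.06 (G3SEKO Icos-low) and *Nfil3* -0.082 (the difference between gates). With gates at 0.5 these were *Nfil3* 0.13 (Icos+), *Tox* 0.020 (Ccr6+), *Zbtb16* 0.020 (Eomes+), *Nfil3* 0.45 (Eomes+), *Tox* 0.10 (Eomes+) and *Bcl11b* 0.0017 (G3SEKO Icos-low). With gates at 1.5 these were *Tbx21* -0.39 (Icos+), *Tox* 0.37 (Ccr6+), *Nfil3* 0.27 (Eomes+), *Tox* 0.23 (Eomes+) and *Tox* 0.32 (G3SEKO Icos-low). With thinned cells these were *Lef1* -0.033 (Icos+), *Gfi1* 0.12 (Icos+), *Tcf7* 0.32 (Ccr6+), *Lef1* -0.32 (Ccr6+), *Zbtb16* 0.20 (Eomes+), *Nfil3* 0.32 (G3SEKO Icos-low), *Tox* 0.23 (G3SEKO Icos-low), *Tbx21* 0.90 (G3SEKO Icos+), *Tbx21* -1.51 (G3SEKO Il1rl1+), *Nfil3* -0.27 (the difference between gates) and *Tbx21* -3.41 (the difference between gates). Without *Cd3e* or *Cd3d* cells these were *Nfil3* 0.12 (Icos+), *Tox* 0.091 (Eomes+) and *Tbx21* -0.80 (G3SEKO Icos-low). Without *Mki67* cells this was *Nfil3* 0.085 (Icos+). Without ILC2 marker cells these were *Lef1* -0.27 (Icos+), *Lef1* -0.060 (Ccr6+), *Lef1* -0.079 (Eomes+), *Zbtb16* -0.30 (G3SEKO Icos-low), *Ets1* -0.0053 (the difference between gates) and *Gfi1* 0.29 (the difference between gates). With deeper cells of experiment 2 this was *Zbtb16* -0.034 (G3SEKO Icos-low). With the mean of each cell's CPM these were *Tcf7* 0.48 (Ccr6+), *Lef1* -0.040 (Ccr6+), *Tox* 0.065 (Ccr6+), *Zbtb16* 0.11 (Eomes+), *Tox* 0.066 (Eomes+), *Tox* 0.18 (G3SEKO Icos-low) and *Ets1* 0.16 (G3SEKO Il1rl1+).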
